A study of Homo sapiens with 7 samples.

Results

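TLE3, NR2F2 and ZNF146 encode 3 regulators of transcription. Each gene held several listed clusters of reads from PAR-iCLIP of eIF3a, the largest subunit of the translation initiation factor eIF3. The genes were chosen from earlier results on the same list, because each held several read clusters, so their number of clusters is a description and was not tested. Their clusters were taken as all entries that overlapped, on the gene's strand, a window on hg19 at chr15:70340120-70390300 for TLE3 (minus strand), chr15:96869150-96883500 for NR2F2 (plus strand) and chr19:36705500-36729700 for ZNF146 (plus strand). They numbered 20 of the 3604 clusters in the list, with 7 in TLE3, 5 in NR2F2 and 8 in ZNF146.

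The eIF3a data came from PAR-iCLIP of 2 replicates of HEK293T, a line derived from human embryonic kidney that expresses the large T antigen of SV40. Cells were fed 4-thiouridine for 8 h and irradiated at 354 nm, which joins proteins to RNA at the labelled base, and the RNA held by an antibody against eIF3a was sequenced. The series also had 5 m6A libraries from HEK293T and HepG2, which were not analysed here. The eIF3a data were deposited as 1 list whose entries name no replicate, and whether it holds reads of both is not stated, so no value below has a replicate error, no condition was compared and no test was made.

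eIF3 is a complex of many subunits that binds the small subunit of the ribosome and takes part in loading it onto messengers. TLE3 belongs to the Groucho family of co-repressors, which do not bind DNA themselves but are brought to it by partners such as the TCF/LEF factors of the Wnt pathway. NR2F2, also called COUP-TFII, is an orphan nuclear receptor known for its part in the identity of veins and in organ development. ZNF146, also called OZF, is a zinc finger protein that consists almost wholly of fingers of the C2H2 type.

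Each entry of the list has a score, which is the highest read coverage in the cluster, and a coverage profile, which split exactly into reads of 25 nt in all 20 clusters. The number of reads in a cluster is the area of the profile divided by 25. Positions are given with the first and last listed base, counted from 1, and are uncertain by 1 nt because fully listed intervals were 1 nt shorter than their profiles. The windows are not annotated transcripts: start sites, exons, untranslated regions and the bases under the clusters were not analysed here, since no hg19 annotation or sequence was used. The names of the genes rest on position and strand.

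The 20 clusters together held 212 reads, or 192 when reads listed in 2 overlapping profiles of NR2F2 were counted once. By gene this was 62 reads in TLE3, 56 in NR2F2 (76 with the repeated reads) and 74 in ZNF146, so the genes were alike in reads although TLE3 and ZNF146 had more clusters than NR2F2. Each of the 212 read starts in these profiles held 1 read, as did 36882 starts of the list, counting each distinct profile once, while 10 held 2; whether duplicate reads had been removed is not stated. All 3 windows held 0 entries on the opposite strand, and widening each by 10000 nt on both sides added no cluster. The nearest clusters of the same strand outside the windows lay 1226885 nt away for TLE3, 2308268 nt for NR2F2 and 99038 nt for ZNF146.

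**Figure D1:**
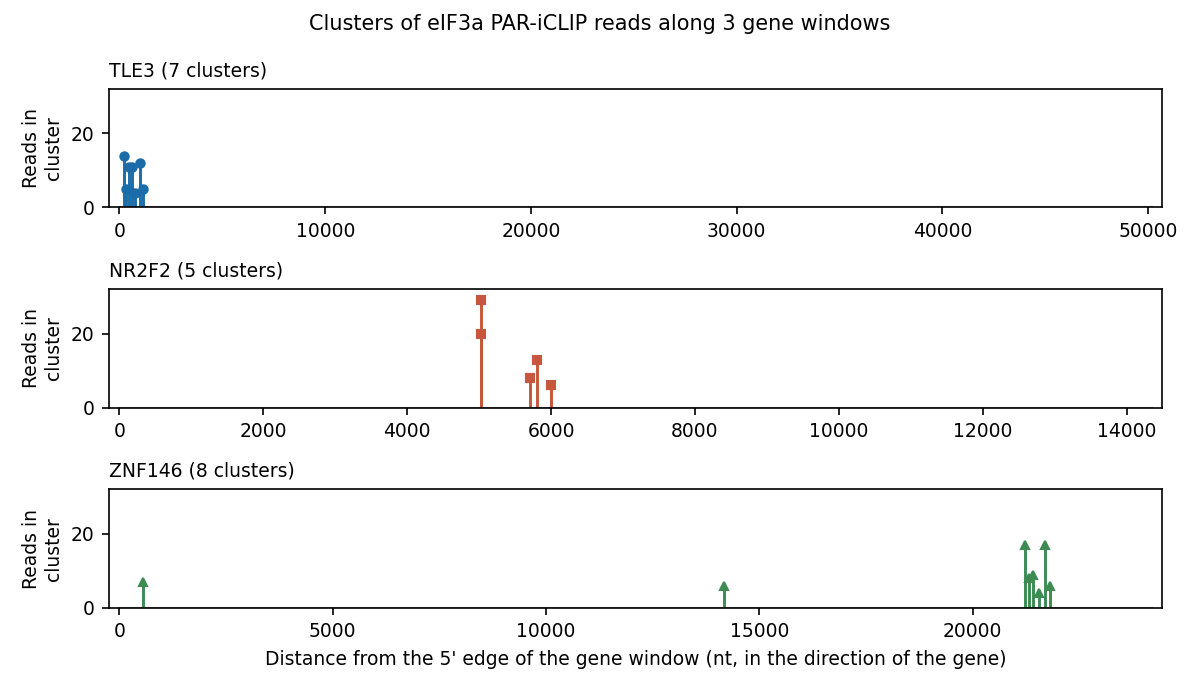
Reads per cluster (vertical axis) against distance from the 5' edge of each gene window in nt, in the direction of the gene; each stem is 1 cluster, and the 3 horizontal axes differ in scale. The 7 clusters of TLE3 begin 170 to 1137 nt from the edge, those of NR2F2 at 4961 nt and beyond, and 6 of the 8 of ZNF146 at 21171 nt and beyond.

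The clusters sat in a different part of each gene's window. In TLE3 all 7 lay in 993 nt, from 70389138 to 70390130 on chromosome 15, which is 1.98% of the window and begins 170 nt from its 5' edge. The remaining 49018 nt of the window held no entry. In NR2F2 all clusters lay in 1058 nt, from 96874111 to 96875168 on chromosome 15, beginning 4961 nt from the 5' edge and ending 8332 nt before the 3' edge. In ZNF146 the pattern was split: 6 clusters lay in 665 nt, from 36726671 to 36727335 on chromosome 19, which ended 2365 nt before the 3' edge, and held 82.4% of the gene's reads. The other 2 stood alone, 1 near the 5' edge and 1 in the body of the window. TLE3 and ZNF146 thus had their crowded stretches at opposite ends of their windows. Where the stretches lie on the messengers was not analysed.

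In TLE3, clusters poor in reads lay between richer clusters or at the 3' end of the stretch. Read in the direction of the gene, the first cluster, at 70390059 to 70390130, contained 14 reads, the most of the 7, and scored 9. The second, at 70389963 to 70390014, had 5 reads and scored 4. Next came a pair with 11 reads and a score of 7 each, at 70389799 to 70389883 and at 70389632 to 70389723. The fifth, at 70389534 to 70389572, held 4 reads that all overlapped. The sixth, at 70389287 to 70389346, held 12 reads in only 61 nt and reached a score of 9 like the first. The last, at 70389138 to 70389163, held 5 reads that all overlapped, and only 26 of its 38 nt were listed. The 4 clusters with 10 or more reads held 48 of the gene's 62 reads, or 77.4%.

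The gaps between the listed intervals of TLE3 were 44, 79, 75, 59, 187 and 123 nt, in the direction of the gene. The first 5 clusters were thus less than 100 nt from their neighbours, and the last 2 stood somewhat apart. Because the last cluster is longer than its listing, the gap of 123 nt may be too large by up to 12 nt. Listed intervals filled 42.9% of the stretch.

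Several TLE3 clusters had reads that began at neighbouring bases. In the sixth cluster reads began at each of bases 31 to 35, counted from the cluster's 5' end, and again at bases 24 to 26, so that 8 of its 12 reads came from 2 runs. The first cluster had a run of 5 as well, at bases 24 to 28, and the third a run of 4, at bases 20 to 23. Runs of 4 or more occurred in 3 of 7 TLE3 clusters, 1 of 5 in NR2F2 and 1 of 8 in ZNF146, together 5 of 20, against 18.0% of all clusters on the primary chromosomes. In iCLIP the first base of a read commonly lies next to the base that was joined to the protein. Whether the 25 nt kept here begin at that end is not stated in the labels.

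**Figure D2:**
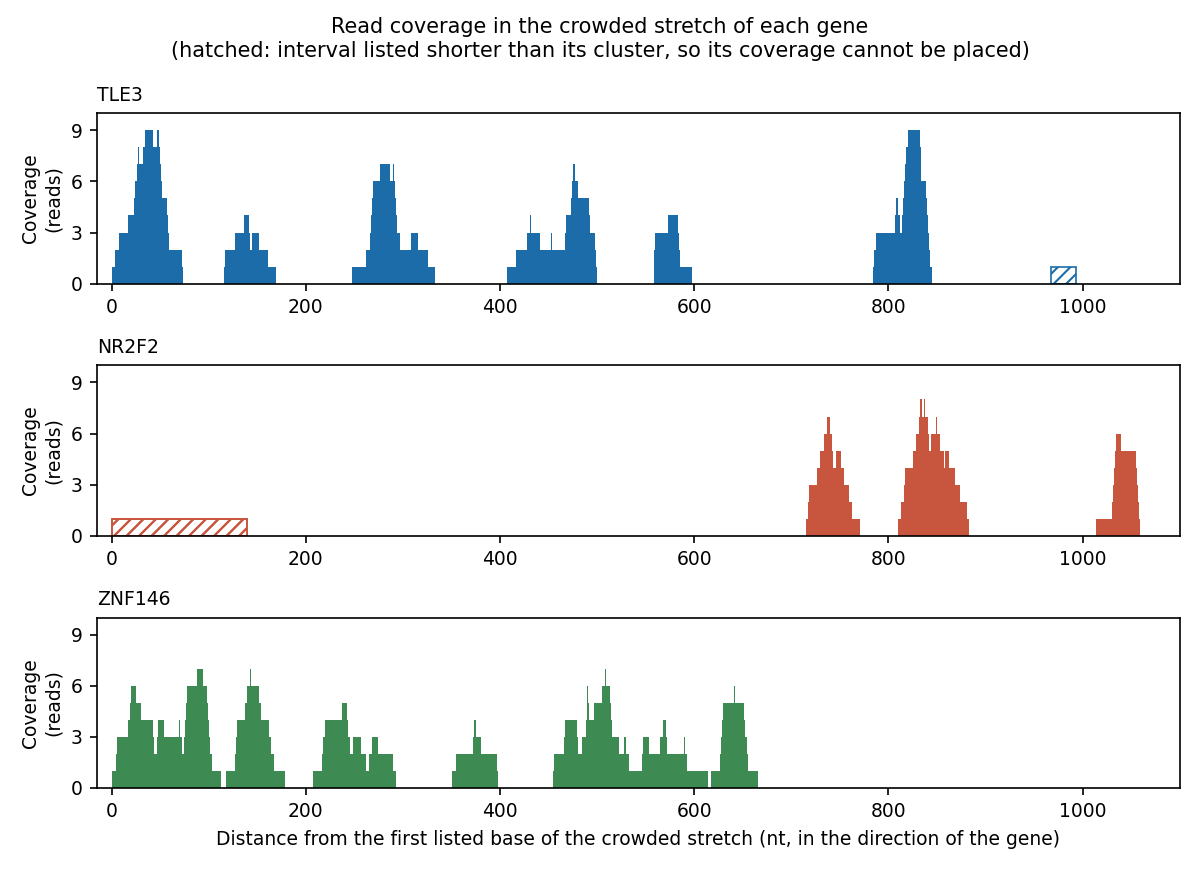
Read coverage (vertical axis, in reads) against distance from the first listed base of each gene's crowded stretch in nt, in the direction of the gene. Hatched boxes mark intervals listed shorter than their clusters, whose coverage could not be placed; the TLE3 summits reach 9 reads, those of NR2F2 8 and those of ZNF146 7.

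NR2F2 had the cluster with the most reads among the 3 genes, and it was listed with 2 profiles. The interval at 96874111 to 96874249, 139 nt long, appeared once with 29 reads over 196 nt and a score of 8, and once with 20 reads over 150 nt and a score of 7. The 20 read starts of the shorter profile were those of the longer one from 46 nt into it onward, to the base, and the longer one had 9 further reads before them. These 2 entries are therefore 1 place with 29 different reads. Such nesting was not peculiar to NR2F2: 21 of the 3927 distinct intervals of the list had more than 1 profile, and in all 21 a profile lay inside another.

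The longer NR2F2 profile had 4 heaps of coverage. A heap was a local maximum at least 2 reads above the lowest coverage on each side, up to higher coverage or the profile's end. Maxima of equal height were thus counted apart even where the dip between them was less than 2 reads deep. In this profile the 4 heaps had heights of 8, 7, 7 and 4 reads, and their middles lay 43.5, 47.5 and 36.5 nt apart. Its 29 reads thus did not form a single summit, and the score of 8 was 27.6% of the reads. The median share over all clusters was 75.6%, but those had medians of only 6 reads and 61 nt. Clusters of like size were not compared. Only 6.98% of all clusters on the primary chromosomes held more reads, and 2.55% were longer.

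**Figure D3:**
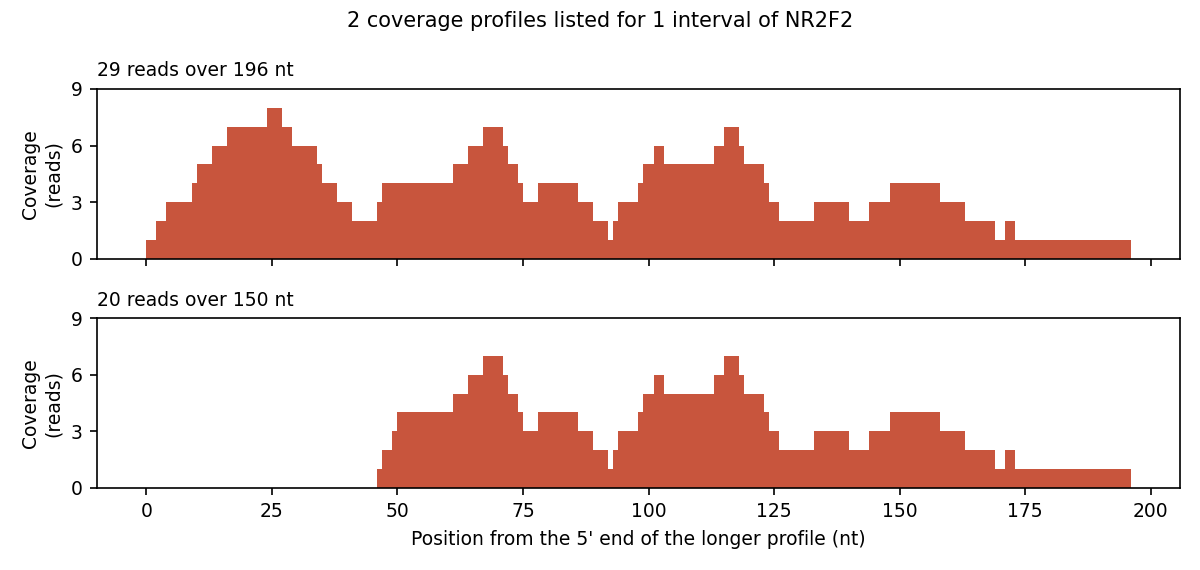
The 2 coverage profiles listed for the interval of NR2F2 at its 5' side, in reads (vertical axis), against position from the 5' end of the longer profile in nt; the shorter profile is shifted by 46 nt, where its reads match. The longer profile holds 29 reads in 4 heaps, and the shorter one lacks the first 9 reads and their heap of 8.

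The other NR2F2 clusters were shorter, at 45 to 73 nt, and lay 576 nt further on. The cluster at 96874826 to 96874880 held 8 reads, of which 7 overlapped at the summit. After a gap of 40 nt came the cluster at 96874921 to 96874992, with 13 reads and a score of 8. The last, 132 nt further at 96875125 to 96875168, held 6 reads that all overlapped, 5 of them begun at bases 17 to 21 in a row. Listed intervals filled 29.3% of the stretch, the least of the 3 genes, although the part of the first cluster that was not listed may narrow the gap of 576 nt.

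ZNF146 had its clusters closest together. In its crowded stretch the listed intervals filled 76.7%, and the 5 gaps were 6, 30, 58, 57 and 4 nt, so that the second cluster all but touched the first, and the sixth the fifth. The stretch began with 17 reads over 113 nt, at 36726671 to 36726782, followed by 8 reads at 36726789 to 36726847 and 9 reads at 36726878 to 36726962. The smallest, at 36727021 to 36727067, held 4 reads. The longest, at 36727125 to 36727283, again held 17 reads, now spread over 160 nt, and the last, at 36727288 to 36727335, held 6 that all overlapped. Scores lay between 4 and 7 throughout. Each of these large clusters had 4 heaps, with heights of 6, 4, 4 and 7 reads in the first and of 4, 6, 7 and 4 reads in the longest. These are coverages at the maxima, not shares of the 17 reads. Between the equal heaps of the first, the dip was less than 2 reads deep.

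The 2 lone clusters of ZNF146 were close to the typical cluster of the list. The cluster at 36706021 to 36706073 lay 521 nt from the 5' edge and had 7 reads and a score of 6. It was listed a second time with a shorter interval. The cluster at 36719651 to 36719712, 13577 nt further, had 6 reads and a score of 5, and 6958 nt separated it from the crowded stretch. The list's median cluster had 6 reads and a score of 5.

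Beside the whole list, the clusters of these genes were moderate in reads and leaned towards higher scores, though not the highest. Their reads lay between 4 and 29 (median 8.5) and their scores between 4 and 9 (median 7), while the 3566 clusters on the primary chromosomes had medians of 6 reads and a score of 5. Counts at the upper quartile were 7 of 20 for reads (12 or more; 25.8% of all clusters), 11 of 20 for score (7 or more; 28.0%) and 4 of 20 for length (95 nt or more; 25.2%), and each of these counts includes both nested profiles of NR2F2. Of the 20, 10 had 2 or more heaps (38.5% of all clusters), the nested profiles again among them. The TLE3 clusters at 70390059 to 70390130 and at 70389799 to 70389883 counted only because maxima of equal height were counted apart. Their heaps, of 9 reads each and of 7 reads each, were parted by a dip of less than 2 reads. How many of all clusters counted only in this way was not determined, so no excess over the list is claimed. In 5 of 20 every read covered the summit (36.9% of all clusters). Their median length was 62 nt, close to the 61 nt of all clusters. None reached a score of 10, whereas the highest score in the list was 24.

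**Figure D4:**
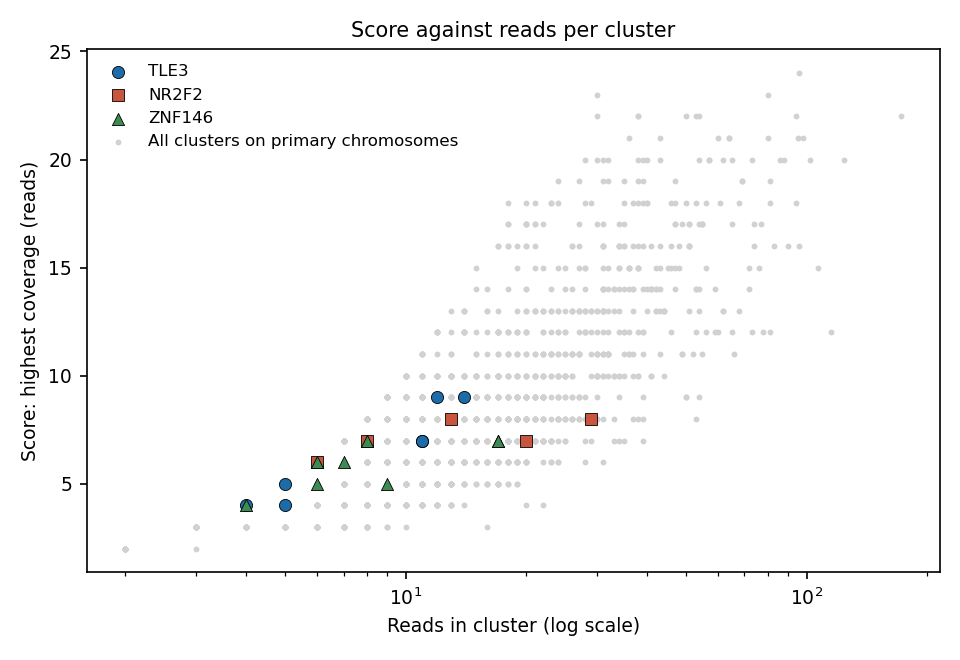
Score, the highest coverage in reads (vertical axis), against reads per cluster (horizontal axis, log scale) for the 20 clusters of the 3 genes and, in grey, all 3566 clusters on the primary chromosomes; some symbols coincide. The members lie between 4 and 29 reads and between scores of 4 and 9, below the list's highest summits.

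Median reads per cluster were 11 in TLE3, 13 in NR2F2 and 7.5 in ZNF146, and median lengths 61, 73 and 61.5 nt. Without the shorter of the nested profiles, NR2F2 had medians of 10.5 reads and 64.5 nt, so that TLE3 and not NR2F2 had the highest median of reads. Scores per cluster overlapped between the genes, at 4 to 9 in TLE3, 6 to 8 in NR2F2 and 4 to 7 in ZNF146. Reads per 100 nt of the crowded stretch were highest in ZNF146 (9.17), then TLE3 (6.24) and NR2F2 (5.29, with repeated reads counted once). With 4 to 7 places per stretch and no replicate error, this order was not tested.

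The genes were chosen for the crowding of their clusters, which is given here as a description. Of the 20 clusters, 15 overlapped another or lay at most 100 nt from one on the same strand, against 23.8% of all clusters; 2 of the 15 are the nested profiles of NR2F2. Only 3 of 20 were listed more than 1 nt short of their profile (41.4% of all clusters), and 2 of these 3 are the same nested pair. When clusters at most 1000 nt apart were joined, the list formed 2877 regions, 2361 of them with a single cluster and 33 with 4 or more. TLE3, with 7 clusters, shared the second place by number with 3 other regions. The stretch of ZNF146 was among 5 regions with 6 clusters, and that of NR2F2, nested profile included, among 3 with 5.

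The 4 other regions with 7 or more clusters held more reads than the stretches of TLE3 and ZNF146. The region with the most clusters, 9, lay at chr4:103747666-103749186 on the minus strand and held 82 reads in 1521 nt. Of the 3 other regions with 7 clusters, those at chr5:79945906-79946800 and chr1:46126005-46126865, both on the minus strand, held 122 reads in 895 nt and 88 reads in 861 nt, and the remaining one held 76 reads in 841 nt. Against these, TLE3 had 62 reads in 993 nt and ZNF146 61 reads in 665 nt. The median of the 33 regions with 4 or more clusters was 51 reads in a median length of 629 nt.

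**Figure D5:**
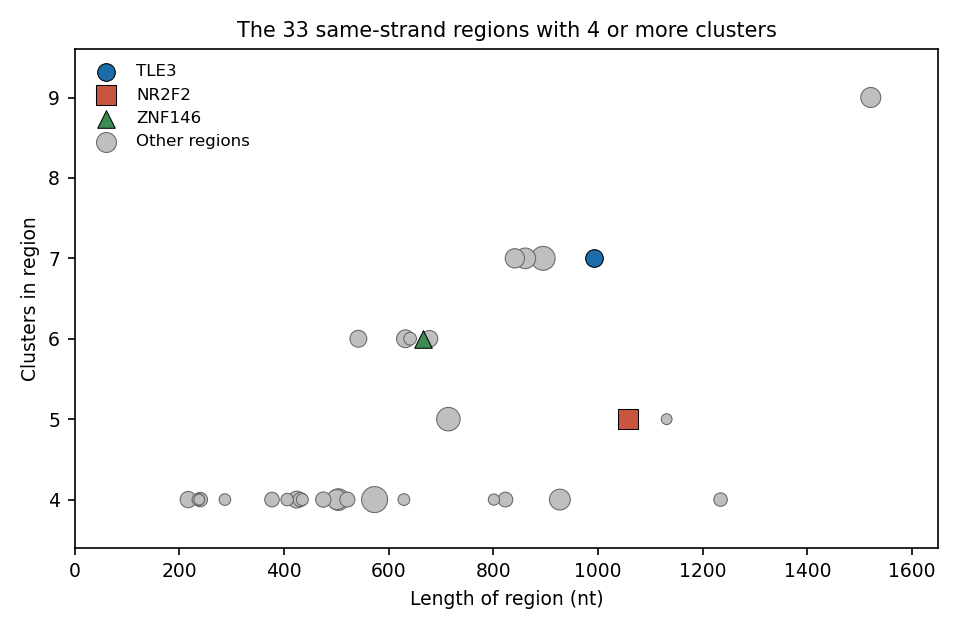
Number of clusters (vertical axis) against length in nt (horizontal axis) of the 33 regions with 4 or more clusters joined at up to 1000 nt, with the symbol area growing with reads. TLE3 stands at 7 clusters and 993 nt, ZNF146 at 6 and 665 nt, and NR2F2 at 5, nested profile included, and 1058 nt.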

How the data were processed

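Reads of the eIF3a PAR-iCLIP samples were aligned to hg19 with Bowtie, per the submitters' processing notes; for the cluster caller, its filters, duplicates and the pooling of replicates, the sources used here give nothing. What the authors deposited was a headerless list of 4013 entries. Its signal, the highest coverage in whole reads without normalization, equalled the top of the deposited coverage profile in all 4013 entries. Library depth is unknown.

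Each profile was split into reads of 25 nt, which was exact for all 3113 distinct profiles, against 0 with reads of 24 or 26 nt. On data simulated from reads of 25 nt, 3113 of 3113 profiles were recovered. That simulation checks the code only, since it used the same read length as the splitting. Entries of 1 profile that fitted within its length were 1 cluster. Profiles run from left to right on both strands: 5 pairs of clusters with 9 or more reads had mirrored profiles on opposite strands, and 0 had unmirrored ones. TLE3 profiles were therefore reversed.

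The genes, windows and measures were chosen with earlier results of these data known. All clusters of the 3 genes are named, and of other regions the 3 with the most clusters, ties broken by reads and then by position. All 3 symbols were found in a RefSeq table of another build, used for names only. Python 3.11.15 was used with pandas 2.3.3, numpy 2.4.6, scipy 1.17.1 and matplotlib 3.10.9.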

Additional observations from a re-analysis of the deposited data

How the results depend on the processing

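Joining clusters at most 1000 nt apart left 1 site in TLE3, 1 in NR2F2 and 3 in ZNF146, and joining at 50 nt left 3 in NR2F2 and 5 in ZNF146. The other strand of each window gave 0. With joining at 50 nt, median reads per site became 21 in NR2F2 and 7 in ZNF146. Listed intervals in place of profiles gave median lengths of 60, 72 and 60.5 nt for TLE3, NR2F2 and ZNF146. Distances between midpoints in place of gaps had medians of 155.5, 190 and 124 nt in that order, against median gaps of 77, 132 and 57 nt; midpoints add the lengths of the intervals. Without the nested profile, an alternative chosen after seeing the data, NR2F2 had a median of 10.5 reads and 64.5 nt. Counting every entry and the score filter kept counts of clusters and of reads within 1.5 times, and so did merging overlaps and wider windows for clusters. No paired analysis was possible because the entries carry no replicate number, and no replicate could be left out. Few reads per cluster and an unknown depth limit each value.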
